A study of Mus musculus with 12 samples.

Results

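The 8 genes described here encode proteins of the primary (azurophil) granules of neutrophils, their inhibitors and a marker of the promyelocyte stage at which these granules are made. They are Mpo, Elane, Prtn3, Ctsg, Prss57, Serpinb1a, Cst7 and Ms4a3, taken by name as azurophil granule and promyelocyte genes from the 28987 genes of the deposited expression table, and all 8 were found there. Primary granules are the first granules to form in the neutrophil lineage, in promyelocytes, and their mRNAs are switched off before the mRNAs of secondary and tertiary granules appear. They carry myeloperoxidase and serine proteases that are stored in active form after cathepsin C has trimmed them. Serpins in the cytosol inhibit these serine proteases, and cystatins in granules and lysosomes inhibit cysteine proteases such as cathepsin C.

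RNA was sequenced in 12 bone marrow libraries of C57BL/6 mice, 2 in each of 6 groups. Haematopoietic stem and progenitor cells (HSPC), selected through the surface receptor CD117, came from CBL/RUNX1 double mutant, CBL mutant, RUNX1 mutant and wild type mice. Ly6G+ myeloid cells, sorted by flow cytometry, came from CBL/RUNX1 double mutant and wild type mice. The labels' protocols state that marrow was taken from individual mice and that the mutant clone was sorted, so a difference in sorting between mutant and wild type cells cannot be told apart from a difference in genotype. The labels name neither the alleles, nor how they were introduced, nor the age of the mice. Cbl encodes a ubiquitin ligase that ends signalling from growth factor and cytokine receptors. RUNX1 is a transcription factor of blood formation.

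All values are TPM, the abundance of a gene's transcripts relative to all transcripts of the library, corrected for transcript length, so levels can be compared between genes. Read depth cannot be read from TPM and is unknown. Kit, which encodes CD117, lay between 24.5 and 229 TPM in HSPC libraries and between 5.89 and 38.0 TPM in Ly6G+ libraries. The 11 neutrophil marker genes together took 9.26% to 36.4% of the TPM of HSPC libraries and 9.65% to 42.6% of that of Ly6G+ libraries. In such bulk samples, fewer cells of a type and less RNA per cell cannot be told apart. Runx1 had 257 and 248 TPM in double mutant, 12.2 and 16.4 in CBL mutant, 170 and 45.3 in RUNX1 mutant and 12.7 and 11.3 in wild type HSPC. Cbl had 103 and 115 TPM in double mutant, 73.7 and 81.3 in CBL mutant, 24.9 and 32.1 in RUNX1 mutant and 31.0 and 17.9 in wild type HSPC. A pair of libraries stood apart from their replicates. RUNX1 mutant HSPC library 1 had 1181 TPM of the mast cell gene Cpa3, against 48.2 TPM in library 2. Double mutant Ly6G+ library 1 had 389 TPM of Ly6g and 667 TPM of Irf8, against 1448 and 91.7 TPM in library 2.

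The members lie on 6 chromosomes of the GRCm38 build (mm10). Prss57 (chr10:79781474-79790961, minus strand), Prtn3 (chr10:79874476-79883174, plus strand) and Elane (chr10:79886247-79888215, plus strand) form a cluster in which Elane starts 3073 bases after the end of Prtn3 and Prtn3 starts 83515 bases after the end of Prss57. Ctsg (chr14:56099881-56102574, minus strand) lies among mast cell protease and granzyme genes. Mpo (chr11:87793581-87804413, plus strand), Serpinb1a (chr13:32842092-32851185, minus strand), Cst7 (chr2:150570415-150578944, plus strand) and Ms4a3 (chr19:11629496-11640851, minus strand) each lie on another chromosome. All 8 are annotated as protein-coding genes.

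The promoters of the members have been studied as targets of MYB, PU.1, C/EBP and RUNX factors, and the mutant groups differ in RUNX1. RefSeq's promoter table for GRCm38.p6 held 6 of the 8 members, with 250 bases before and 50 after the annotated start. The sequences below are those of myeloperoxidase and the 3 best expressed serine proteases, whose mRNAs varied together, and of Cst7, which varied most between genotypes. Capitals mark matches to GAGGAA (PU.1), AACNG (MYB) and TGTGGT (RUNX) on either strand. The windows are chr11:87793534-87793833 (plus strand) for Mpo, chr10:79886062-79886361 (plus strand) for Elane, chr10:79879417-79879716 (plus strand) for Prtn3, chr14:56102525-56102824 (minus strand) for Ctsg and chr2:150570165-150570464 (plus strand) for Cst7. The Mpo, Elane and Prtn3 windows follow RefSeq's starts, which lie inside the longer GENCODE genes given above.
Mpo: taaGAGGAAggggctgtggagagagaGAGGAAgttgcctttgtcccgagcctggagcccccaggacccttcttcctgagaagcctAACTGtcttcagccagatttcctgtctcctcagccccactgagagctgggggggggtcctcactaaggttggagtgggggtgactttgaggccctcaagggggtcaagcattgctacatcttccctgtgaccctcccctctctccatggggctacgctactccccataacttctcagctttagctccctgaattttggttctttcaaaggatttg
Elane: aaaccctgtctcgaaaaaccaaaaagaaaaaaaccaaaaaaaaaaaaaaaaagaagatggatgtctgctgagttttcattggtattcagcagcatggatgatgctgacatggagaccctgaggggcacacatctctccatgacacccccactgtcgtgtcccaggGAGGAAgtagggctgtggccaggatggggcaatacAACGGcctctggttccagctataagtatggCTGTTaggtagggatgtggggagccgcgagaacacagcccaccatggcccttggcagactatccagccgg
Prtn3: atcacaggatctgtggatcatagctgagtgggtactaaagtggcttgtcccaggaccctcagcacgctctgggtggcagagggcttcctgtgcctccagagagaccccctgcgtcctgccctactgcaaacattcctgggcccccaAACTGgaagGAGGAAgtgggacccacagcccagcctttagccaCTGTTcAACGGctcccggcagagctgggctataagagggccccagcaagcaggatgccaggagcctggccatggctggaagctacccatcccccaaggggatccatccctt
Ctsg: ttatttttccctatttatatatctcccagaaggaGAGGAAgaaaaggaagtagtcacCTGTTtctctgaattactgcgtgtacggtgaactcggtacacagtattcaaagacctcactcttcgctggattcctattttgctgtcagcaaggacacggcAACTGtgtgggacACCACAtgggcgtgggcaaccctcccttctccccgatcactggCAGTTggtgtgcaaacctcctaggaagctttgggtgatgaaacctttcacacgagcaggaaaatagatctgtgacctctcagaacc
Cst7: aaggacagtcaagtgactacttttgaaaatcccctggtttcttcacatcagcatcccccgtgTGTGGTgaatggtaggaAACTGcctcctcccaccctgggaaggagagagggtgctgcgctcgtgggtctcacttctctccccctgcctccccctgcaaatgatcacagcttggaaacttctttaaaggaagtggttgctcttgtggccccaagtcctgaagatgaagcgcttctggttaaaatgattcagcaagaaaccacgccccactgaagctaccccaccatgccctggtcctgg

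GAGGAA was found in 5 of the 6 member promoters (Mpo, Elane, Prtn3, Ctsg and Ms4a3), against 28.3% of all 32851 promoters in the table. AACNG was found in 5 of 6 (all but Ms4a3), against 80.3% of all promoters. TGTGGT was found in 2 of 6, against 16.8%. It lies in the Ctsg promoter as ACCACA on the other strand, 79 bases before the start, and in the Cst7 promoter 188 bases before the start. TGCGGT, a variant RUNX motif, and TTGCG, a part of the C/EBP site, were found in 0 of 6, against 6.45% and 17.4% of all promoters. No 2 matches overlapped. A match is a description of these windows only.

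Mpo and the serine protease genes Elane, Prtn3 and Ctsg were among the most abundant mRNAs of HSPC of every genotype. Mpo encodes the enzyme that makes hypochlorous acid from hydrogen peroxide. It had 4796 and 5049 TPM in double mutant, 1426 and 3512 in CBL mutant, 3116 and 2371 in RUNX1 mutant and 2188 and 1867 TPM in wild type HSPC. Both double mutant libraries lay above all others, and the CBL mutant libraries lay on either side of the wild type ones. Mpo ranked 20 among all genes in both double mutant libraries and 41 and 57 in the wild type ones.

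Elane, neutrophil elastase, had 3151 and 3708 TPM in double mutant, 1270 and 3430 in CBL mutant, 2691 and 2238 in RUNX1 mutant and 2450 and 2395 TPM in wild type HSPC. Its neighbour Prtn3, proteinase 3, had 2800 and 3112 TPM in double mutant, 1069 and 2482 in CBL mutant, 2396 and 2041 in RUNX1 mutant and 1959 and 1901 TPM in wild type HSPC. Ctsg, cathepsin G, had 2596 and 3150 TPM in double mutant, 690 and 1611 in CBL mutant, 1422 and 1028 in RUNX1 mutant and 972 and 968 TPM in wild type HSPC. In all 3 genes both double mutant libraries exceeded both wild type libraries as deposited, and the first CBL mutant library was the lowest of the 8. Over the 8 HSPC libraries the log2 levels of Elane and Prtn3 had a Pearson correlation of 0.976 and those of Mpo and Ctsg one of 0.972, while Elane and Ctsg had 0.736. Within a library all genes share the same depth and scaling factor, and the correlations are a description only.

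**Figure D1:**
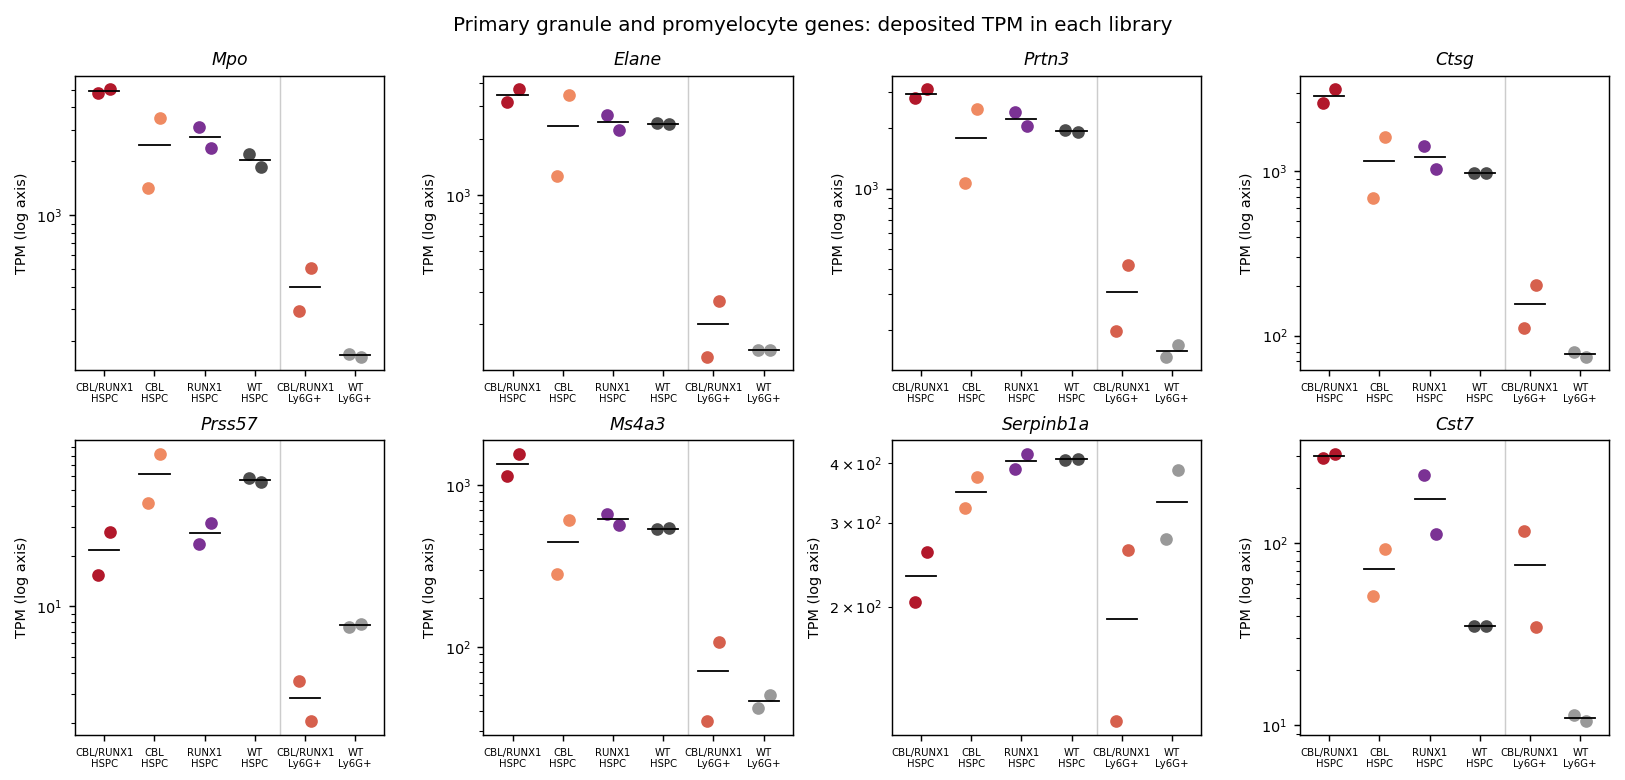
Deposited TPM of each of the 8 genes on a logarithmic axis, with 1 point per library and a line at the mean of each group of 2. Mpo, Elane, Prtn3, Ctsg and Ms4a3 lie highest in HSPC and lower in Ly6G+ cells, Prss57 and Serpinb1a are lowest on average among HSPC in the double mutant, and Cst7 is highest there.

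Genes were tested after scaling the libraries to each other, by factors between 0.709 and 1.501. The scaled values were compared in limma as log2(scaled TPM + 1), with all 8 HSPC libraries in one fit and Benjamini-Hochberg adjustment of p-values across the 12318 genes of the fit. A gene is called at an adjusted p under 0.05. Of the 8 members, 3 were called between double mutant and wild type HSPC, 1 higher and 2 lower. Of all genes, 11.4% were called, 4.64% higher and 6.79% lower. On the scaled values the 2 double mutant libraries lay above both wild type libraries for 4 members and below both for 2 members, which 36.3% and 35% of all genes also did.

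Mpo and the 3 abundant proteases were not called. The log2 fold change of double mutant over wild type HSPC was 0.65 ± 0.37 (SE) for Mpo (limma, adjusted p = 0.263) and 0.92 ± 0.37 for Ctsg (adjusted p = 0.129). It was -0.14 ± 0.42 for Elane (adjusted p = 0.844) and -0.02 ± 0.36 for Prtn3 (adjusted p = 0.974), but 0.50 and 0.61 on unscaled TPM. Leaving TPM unscaled moved the median log2 fold change of all genes to 0.56, against 0.02 on scaled values. Without scaling, Mpo (1.28, adjusted p = 0.0294), Ctsg (1.56, adjusted p = 0.0158) and Ms4a3 (1.31, adjusted p = 0.0196) were called higher by limma, where 35.3% of all genes were called, 31.9% higher and 3.36% lower. Elane and Prtn3 thus lay close to the median of all genes on either scale, and Mpo and Ctsg lay above it.

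**Figure D2:**
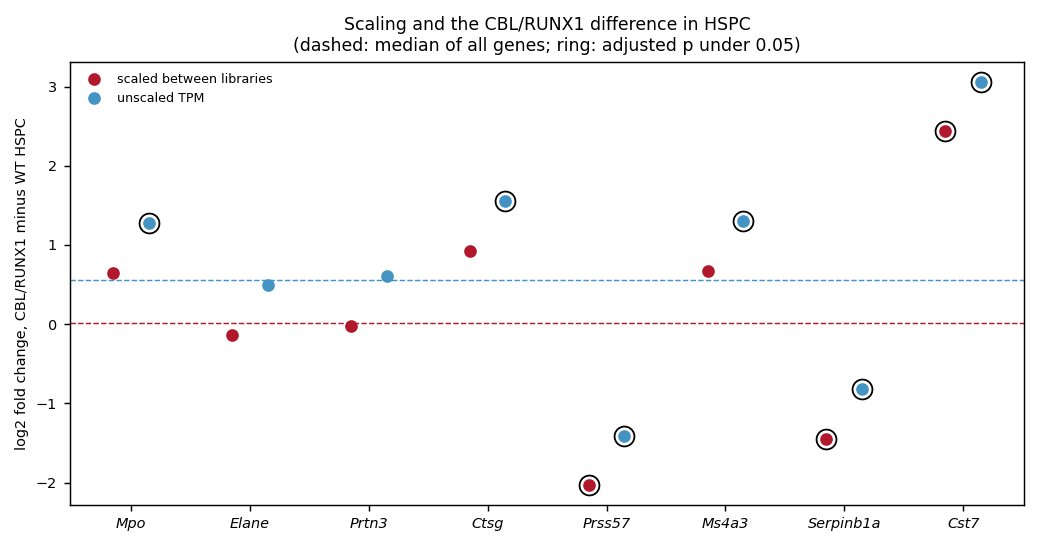
Log2 fold change of double mutant over wild type HSPC for each gene, on scaled and on unscaled TPM, with a dashed line at the median of all genes under each. Rings mark an adjusted p under 0.05. Prss57, Serpinb1a and Cst7 are ringed under both, and Mpo, Ctsg and Ms4a3 on unscaled TPM alone.

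Ratios within a library do not depend on scaling. Ctsg per Elane was 0.824 and 0.849 in double mutant, 0.543 and 0.470 in CBL mutant, 0.528 and 0.459 in RUNX1 mutant and 0.397 and 0.404 in wild type HSPC. The double mutant ratios exceeded those of the other 6 HSPC libraries, and both single mutants lay above wild type. Mpo per Elane was also highest in the double mutant and lowest in wild type, with 1.52 and 1.36 in double mutant, 1.12 and 1.02 in CBL mutant, 1.16 and 1.06 in RUNX1 mutant and 0.893 and 0.780 in wild type HSPC. Prtn3 per Elane varied far less, with 0.889 and 0.839 in double mutant and 0.7996 and 0.794 in wild type HSPC. Ctsg per Prtn3 was 0.927 and 1.01 in double mutant and 0.496 and 0.509 in wild type HSPC. An exact permutation test of 2 libraries against 2 cannot give a two-sided p below 0.333, so these ratios were not tested.

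**Figure D3:**
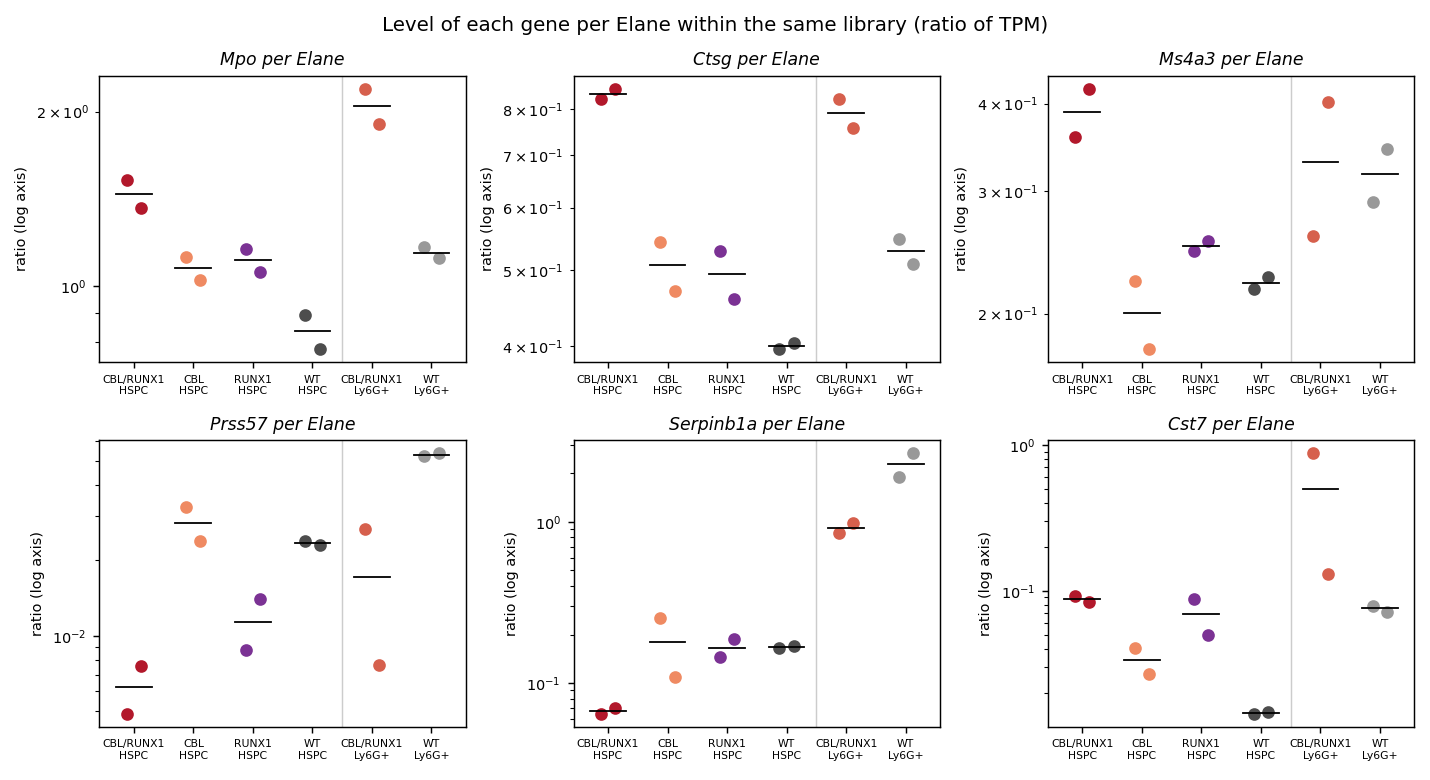
TPM of 6 genes divided by the TPM of Elane in the same library, on logarithmic axes, with a line at the mean of each group of 2. In HSPC, Mpo, Ctsg, Ms4a3 and Cst7 per Elane are highest on average in the double mutant, and Prss57 and Serpinb1a per Elane are lowest there.

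Prss57, which encodes the granule protease known as neutrophil serine protease 4, was lower in double mutant HSPC, unlike the other proteases. It had 15.4 and 28.0 TPM in double mutant, 41.3 and 81.8 in CBL mutant, 23.7 and 31.4 in RUNX1 mutant and 58.8 and 55.3 TPM in wild type HSPC. The double mutant and RUNX1 mutant libraries all lay below the wild type ones, and the CBL mutant libraries lay on either side. Prss57 fell by 2.03 on the log2 scale in double mutant against wild type HSPC (SE 0.44, limma adjusted p = 0.0362). Per Elane it was 0.0049 and 0.0076 in double mutant and 0.0240 and 0.0231 in wild type HSPC. The gene overlaps Fstl3 on the opposite strand, and Fstl3 lay between 1.65 and 5.98 TPM in all libraries. Whether the quantification used strand is not given in the sources used here.

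Serpinb1a encodes a cytosolic serpin that inhibits elastase, proteinase 3 and cathepsin G. It had 204 and 261 TPM in double mutant, 321 and 373 in CBL mutant, 388 and 418 in RUNX1 mutant and 406 and 408 TPM in wild type HSPC. The double mutant libraries were the lowest of the 8. The gene fell by 1.45 on the log2 scale in double mutant against wild type HSPC (SE 0.25, limma adjusted p = 0.0245). The summed TPM of its 3 target proteases Elane, Prtn3 and Ctsg amounted to 41.9 and 38.3 times that of Serpinb1a in double mutant HSPC, against 9.42 and 20.2 times in CBL mutant, 16.8 and 12.7 times in RUNX1 mutant and 13.2 and 12.9 times in wild type HSPC. The ratio was highest in the double mutant libraries, and it compares mRNA levels only. The paralogues Serpinb1b and Serpinb1c were listed at 0 in all 12 libraries. The summed share of the 11 neutrophil markers was also lower there, with 9.26% and 10.5% in double mutant and 33.9% and 36.4% in wild type HSPC. It was 32.2% and 26.3% in CBL mutant and 15.2% and 32.6% in RUNX1 mutant HSPC. On scaled TPM, Serpinb1a was at 163 and 229 in double mutant and 489 and 576 in wild type HSPC. It was at 316 and 363 in CBL mutant and 291 and 441 in RUNX1 mutant HSPC. The part of the neutrophil marker share in the Serpinb1a result was not tested.

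Cst7 encodes cystatin F, an inhibitor of lysosomal cysteine proteases such as cathepsin C, which itself activates the granule serine proteases. Cst7 had 292 and 309 TPM in double mutant, 51.1 and 92.5 in CBL mutant, 235 and 112 in RUNX1 mutant and 35.2 and 35.1 TPM in wild type HSPC. Every mutant library exceeded both wild type libraries, and the double mutant libraries were the highest. Cst7 rose 5.40-fold in double mutant against wild type HSPC, or by 2.43 ± 0.30 on the log2 scale (SE, limma adjusted p = 0.0121). Its level per TPM of Ctsc, the cathepsin C gene, was 3.30 and 6.14 in double mutant, 1.63 and 2.52 in CBL mutant, 4.17 and 4.04 in RUNX1 mutant and 1.29 and 1.44 in wild type HSPC. Cystatin F is also made by natural killer and T cells. Their 14 markers summed to 15.8 to 18.2 TPM in double mutant HSPC, with Cd3e and Cd3g at 0 in both libraries, and to 192 to 197 TPM in wild type HSPC. Most of the wild type sum was Nkg7, with 9.29 and 9.25 TPM in double mutant and 178 and 179 TPM in wild type HSPC, and the other 13 markers summed to 6.49 and 8.95 TPM in double mutant, 276 and 167 TPM in CBL mutant, 16.2 and 12.3 TPM in RUNX1 mutant and 13.1 and 17.5 TPM in wild type HSPC. The 7 eosinophil markers summed to 289 to 886 TPM in double mutant and 253 to 257 TPM in wild type HSPC, and the 8 basophil and mast cell markers to 270 to 303 TPM in double mutant, 280 to 1707 TPM in RUNX1 mutant and 87.8 to 89.4 TPM in wild type HSPC. The part of these cells in the Cst7 result was not tested.

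Ms4a3 encodes a membrane protein of granulocyte and monocyte progenitors. It had 1130 and 1557 TPM in double mutant, 283 and 611 in CBL mutant, 662 and 569 in RUNX1 mutant and 532 and 540 TPM in wild type HSPC. The double mutant libraries lay above all others. The log2 fold change of double mutant over wild type HSPC was 0.67 ± 0.37 (SE, limma adjusted p = 0.243). Per Elane it was 0.359 and 0.420 in double mutant, 0.223 and 0.178 in CBL mutant, 0.246 and 0.254 in RUNX1 mutant and 0.217 and 0.225 in wild type HSPC.

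Each of the 3 calls in double mutant HSPC was lost when either double mutant or either wild type library was left out, though the log2 fold change of Cst7 stayed between 2.32 and 2.54 over all such fits. Without either CBL mutant library, Cst7 alone was called (limma adjusted p = 0.0134 and 0.0137). Without either RUNX1 mutant library all 3 were called, with limma adjusted p of at most 0.0179. With no filter on low values, Prss57 (adjusted p = 0.0769) and Serpinb1a (adjusted p = 0.0524) missed the threshold, as did Serpinb1a with all 12 libraries in one limma fit (adjusted p = 0.171).

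Neither single mutation gave a call among the members. Between CBL mutant and wild type HSPC, 0 of 8 members were called by limma, 1 had an unadjusted p under 0.05, and 0.56% of all genes were called. In every member but Serpinb1a, the TPM of the CBL mutant libraries differed from each other by more than their mean differed from that of wild type. The log2 fold changes were -0.65 ± 0.25 (SE) for Serpinb1a (limma adjusted p = 0.427) and 0.54 ± 0.30 for Cst7 (adjusted p = 0.558). On scaled values 1 member lay above and 2 lay below both wild type libraries, against 25.3% and 31.6% of all genes. The 14 T and natural killer cell markers summed to 370 to 396 TPM in CBL mutant and 192 to 197 TPM in wild type HSPC, and their part in the Cst7 values was not tested.

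Between RUNX1 mutant and wild type HSPC, 0 of 8 members were called by limma, 2 had an unadjusted p under 0.05, and 0.0487% of all genes were called. These 2 were Cst7, at 1.64 ± 0.30 on the log2 scale (SE, limma adjusted p = 0.144), and Prss57, at -1.57 ± 0.44 (adjusted p = 0.229). On scaled values 1 member lay above and 7 lay below both wild type libraries, against 21.8% and 27.4% of all genes. On unscaled TPM the log2 fold change was above 0 for Mpo (0.43), Elane (0.02), Prtn3 (0.20), Ctsg (0.32) and Ms4a3 (0.20), and the median of all genes was 0.45. The library that stood apart had the larger changes in Cst7 and Prss57. Without it, Cst7 had a log2 fold change of 1.35 (limma adjusted p = 0.175) and Prss57 one of -1.14 (adjusted p = 0.440). With it as the only RUNX1 mutant library, Cst7 (1.92, adjusted p = 0.0072), Prss57 (-2.005, adjusted p = 0.0391) and Serpinb1a (-0.86, adjusted p = 0.0259) were called, as were 29.6% of all genes, on the assumption that a lone library varies like the other groups.

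**Figure D4:**
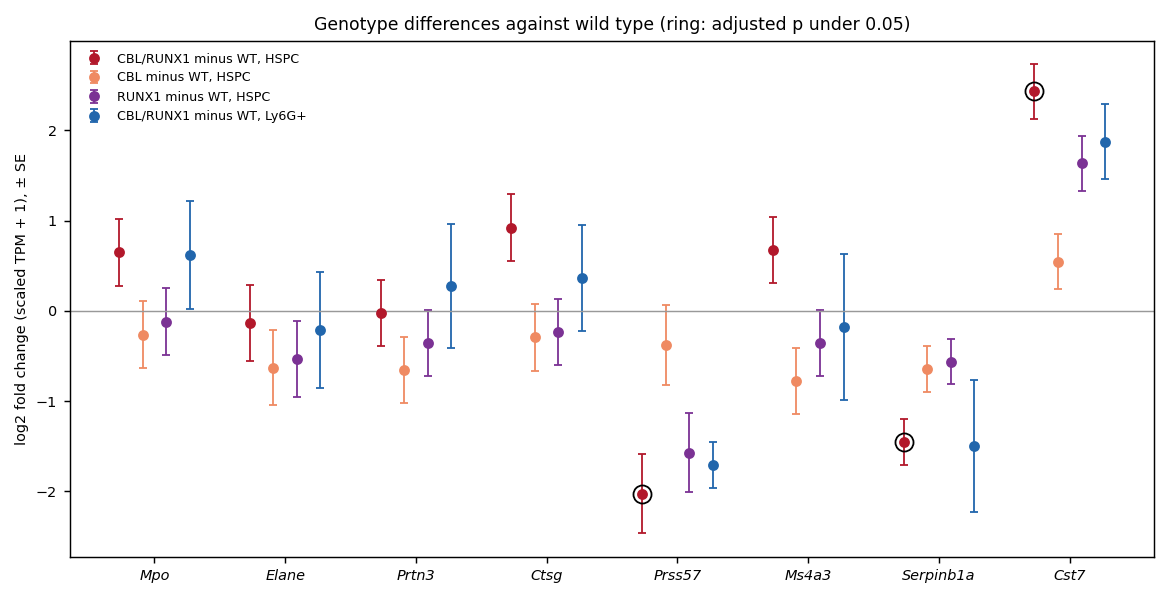
Log2 fold changes of log2(scaled TPM + 1) with their SE for the double mutant, CBL mutant and RUNX1 mutant against wild type HSPC and for the double mutant against wild type Ly6G+ cells, with rings at an adjusted p under 0.05. Prss57 and Serpinb1a lie below 0 and Cst7 above 0 in all 4 comparisons (but Prss57 is at 0.030 in the CBL mutant on unscaled TPM), and only the double mutant HSPC values of these 3 genes are ringed.

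The double mutant was also set against each single mutant. Against CBL mutant HSPC, 1 of 8 members was called by limma and 6 had an unadjusted p under 0.05, where 3.7% of all genes were called. Cst7 rose, by 1.89 ± 0.30 on the log2 scale (SE, limma adjusted p = 0.0266), and 1.48% of all genes were called higher. On scaled values 4 members lay above and 2 lay below both CBL mutant libraries, against 34.1% and 30.7% of all genes. Ms4a3 had 1.45 ± 0.37 (adjusted p = 0.0737), Prss57 had -1.65 ± 0.44 (adjusted p = 0.0827) and Ctsg had 1.22 ± 0.37 (adjusted p = 0.106). The Cst7 call was lost without either CBL mutant, either double mutant or either wild type library, with no filter (adjusted p = 0.0571) and with all 12 libraries in one limma fit (adjusted p = 0.0581). Against RUNX1 mutant HSPC, 0 of 8 members were called by limma and 4 had an unadjusted p under 0.05, where 9.16% of all genes were called. On scaled values 6 members lay above and 1 lay below both RUNX1 mutant libraries, against 28.4% and 25.7% of all genes. The smallest limma adjusted p there was 0.0693, for Serpinb1a at -0.89 ± 0.25 (SE). Both comparisons share the double mutant libraries.

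The non-additive term asked whether the double mutant departed from the sum of both single mutant changes on the log2 scale. It was above 0 for 6 members, with a median over the 8 of 1.004 against 0.03 over all genes, and 0 members were called by limma, where 0.0162% of all genes were called. Ms4a3 had 1.803 ± 0.52 (SE, limma adjusted p = 0.153) and Ctsg had 1.45 ± 0.52 (adjusted p = 0.203), the only members with an unadjusted p under 0.05. Cst7 had 0.25 ± 0.43 (adjusted p = 0.775) but -0.07 on unscaled TPM. The term for Mpo, Elane, Prtn3, Ctsg and Ms4a3 rests on the widely spaced CBL mutant libraries. For Elane it was 0.31 without the first and 1.73 without the second. For Ms4a3 it was 1.26 without the first and 2.35 without the second.

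For 6 members the largest log2 fold changes of all comparisons were those between cell types. Of the 8, 7 fell in wild type Ly6G+ cells against wild type HSPC, where 39.8% of all genes were called and 22.9% were lower. The same 7 lay below both HSPC libraries in both Ly6G+ libraries, as did 45.7% of all genes. The median log2 fold change over all 8 members was -3.61, against -0.08 over all genes. Elane had 145 and 146 TPM in wild type Ly6G+ cells, against 2450 and 2395 TPM in wild type HSPC, and fell by 4.10 on the log2 scale (SE 0.56, limma adjusted p = 0.0014). The other log2 fold changes were -3.65 for Mpo, -3.66 for Prtn3, -3.69 for Ctsg, -3.57 for Ms4a3, -2.82 for Prss57 and -1.66 for Cst7, with limma adjusted p between 0.0014 and 0.0101. Serpinb1a had 277 and 387 TPM in wild type Ly6G+ cells, against 406 and 408 TPM in wild type HSPC, and was not called (-0.36 ± 0.52 on the log2 scale, adjusted p = 0.606). The 3 proteases together thus amounted to 1.34 and 1.001 times the TPM of Serpinb1a in wild type Ly6G+ cells, against 13.2 and 12.9 times in wild type HSPC. The Cst7 call was lost without the second wild type HSPC library (limma adjusted p = 0.0698) or the second wild type Ly6G+ library (adjusted p = 0.0619).

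Double mutant Ly6G+ cells against double mutant HSPC gave the same 7 lower calls, where 28.8% of all genes were called and 16.4% were lower, and in 31.8% of all genes both Ly6G+ libraries lay below both HSPC libraries. The log2 fold changes were -4.42 for Ms4a3, -4.25 for Ctsg, -4.17 for Elane, -3.67 for Mpo, -3.36 for Prtn3, -2.503 for Prss57 and -2.22 for Cst7, with limma adjusted p between 0.0013 and 0.0045. Serpinb1a had 115 and 262 TPM in double mutant Ly6G+ cells, against 204 and 261 TPM in double mutant HSPC (log2 fold change -0.41 ± 0.52, adjusted p = 0.582), but 0.50 without the Ly6G+ library that stood apart.

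Within Ly6G+ cells, 0 of 8 members were called by limma between double mutant and wild type, and 0 of all 11920 genes tested were, although 1677 genes had an unadjusted p under 0.05. Cst7 had 117 and 34.8 TPM in double mutant and 11.5 and 10.5 TPM in wild type Ly6G+ cells, a difference of 1.87 ± 0.42 on the log2 scale (SE, limma adjusted p = 0.281). Prss57 had 3.58 and 2.04 TPM in double mutant and 7.57 and 7.81 TPM in wild type Ly6G+ cells, a difference of -1.71 ± 0.25 (adjusted p = 0.255). Serpinb1a had 115 and 262 TPM in double mutant and 277 and 387 TPM in wild type Ly6G+ cells (-1.501 ± 0.73, adjusted p = 0.383). These 3 members, whose groups did not overlap, had the signs of their calls in HSPC. The sizes for Cst7 and Serpinb1a depended on the double mutant library. Without the first, which stood apart, Cst7 was at 1.34, Serpinb1a at -0.59 and Prss57 at -1.77 on the log2 scale. Without the second, Cst7 was at 2.41, Serpinb1a at -2.42 and Prss57 at -1.66. The first double mutant library held the higher Cst7 level, and its 14 T and natural killer cell markers summed to 188 TPM, against 59.3 TPM in the second and 78.9 to 92.0 TPM in wild type Ly6G+ libraries. Their part in the result was not tested. With all 12 libraries in one limma fit, Cst7 (adjusted p = 0.0283) and Prss57 (adjusted p = 0.0406) were called, as were 8.03% of all genes. On scaled values, 33.1% of all genes had both double mutant libraries above and 29.2% had both below the wild type ones.

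Mpo had 293 and 508 TPM in double mutant and 169 and 163 TPM in wild type Ly6G+ cells, and Elane had 134 and 267 TPM in double mutant and 145 and 146 TPM in wild type cells. Prtn3 had 196 and 420 TPM in double mutant and 147 and 168 TPM in wild type cells, and Ctsg had 111 and 202 TPM in double mutant and 79.3 and 74.2 TPM in wild type cells. Ms4a3 had 34.5 and 107 TPM in double mutant and 42.0 and 50.3 TPM in wild type cells. The second double mutant library was higher than the first in all 5 genes. Without the first library, which stood apart, the log2 fold changes were 1.34 for Mpo, 0.61 for Elane, 1.15 for Prtn3, 1.12 for Ctsg and 0.94 for Ms4a3. Without the second they were -0.10, -1.03, -0.59, -0.39 and -1.30 in that order. Of all 8 members, 7 were called by limma without the first (6 higher, 1 lower), where 10.2% of all genes were called, and 7 without the second (1 higher, 6 lower), where 61.3% of all genes were called. In both fits the spread rests on the wild type pair alone. Ctsg per Elane was 0.826 and 0.758 in double mutant and 0.547 and 0.508 in wild type Ly6G+ cells, and Mpo per Elane was 2.19 and 1.90 in double mutant and 1.17 and 1.12 in wild type cells, so both ratios lay on the side they took in HSPC. Prtn3 per Elane was also higher in the double mutant, with 1.47 and 1.58 against 1.01 and 1.15 in wild type Ly6G+ cells. Ctsg per Prtn3 did not separate the groups, with 0.563 and 0.481 in double mutant and 0.540 and 0.443 in wild type Ly6G+ cells.

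The genotype by cell type term, which asked whether the double mutant difference was larger or smaller in Ly6G+ cells than in HSPC, gave 0 calls and 0 unadjusted p under 0.05 among the 8 members (limma), where 0.0689% of all genes were called. The limma adjusted p lay between 0.780 and 0.995. The term was -0.56 ± 0.54 (SE) for Cst7, 0.31 ± 0.57 for Prss57 and -0.05 ± 0.74 for Serpinb1a.

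In double mutant HSPC the shares of primary and of later granule mRNAs lay on opposite sides of those in wild type HSPC. These are shares of unscaled TPM: the summed level of Mpo, Elane, Prtn3 and Ctsg in double mutant HSPC was 1.93 times that in wild type HSPC on TPM and 1.246 times on scaled TPM. Mpo, Elane, Prtn3 and Ctsg together took 1.38% and 1.55% of TPM in double mutant, 0.457% and 1.14% in CBL mutant, 0.996% and 0.787% in RUNX1 mutant and 0.778% and 0.732% in wild type HSPC. The 13 secondary and tertiary granule genes took 1.48% and 1.46% in double mutant, 5.81% and 5.35% in CBL mutant, 2.18% and 6.13% in RUNX1 mutant and 5.63% and 5.66% in wild type HSPC. The double mutant libraries were highest in the first share and lowest in the second. RUNX1 mutant library 1 lay between them and the others in the second. The top rank in the first share did not hold for both double mutant libraries on scaled TPM. There the summed level of Mpo, Elane, Prtn3 and Ctsg was 10663 and 13208 in double mutant and 4380 and 10735 in CBL mutant HSPC. It was 7211 and 8111 in RUNX1 mutant and 9104 and 10058 in wild type HSPC. In Ly6G+ cells the first share was 0.0786% and 0.143% in double mutant and 0.0551% and 0.0561% in wild type, and the second 2.65% and 10.2% in double mutant and 8.84% and 9.58% in wild type.

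**Figure D5:**
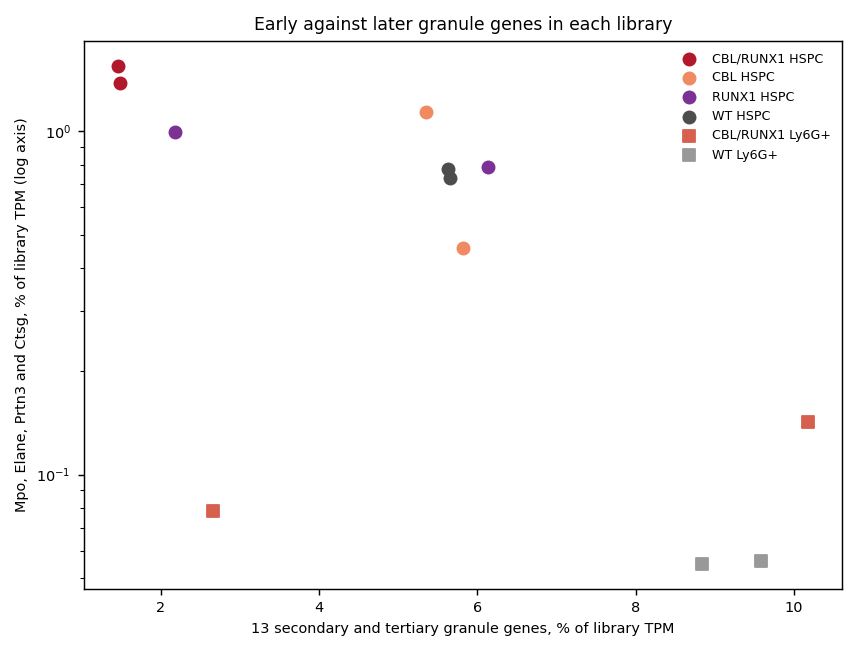
Share of library TPM taken by Mpo, Elane, Prtn3 and Ctsg (logarithmic axis) against the share of 13 secondary and tertiary granule genes, with 1 point per library, circles for HSPC and squares for Ly6G+ cells, on unscaled TPM. The double mutant HSPC libraries lie at 1.38% and 1.55% by 1.48% and 1.46%, above and to the left of the wild type HSPC libraries.

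Of the 13 secondary and tertiary granule genes, 9 fell and 0 rose in double mutant against wild type HSPC, with a median log2 fold change of -2.64 against 0.02 over all genes. Of all genes, 6.79% fell and 4.64% rose in this comparison. Ltf, lactoferrin, fell by 3.39 (SE 0.60, limma adjusted p = 0.0259), and the log2 fold change was -3.53 for the granule protein gene Ngp, -2.98 for the ficolin gene Fcnb and -2.64 for the cathelicidin gene Camp. In wild type Ly6G+ cells against wild type HSPC, 4 of these 13 rose and 0 fell, against 16.9% and 22.9% of all genes, among them Retnlg with a log2 fold change of 5.01 and the collagenase gene Mmp8 with 3.83.

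Of 13 transcription factors that act on granule genes, 3 rose and 0 fell in double mutant against wild type HSPC (4.64% and 6.79% of all genes), all of the RUNX family. Among them is Runx1, which is itself altered in the double mutant. The log2 fold changes were 3.68 ± 0.40 (SE) for Runx1 (limma adjusted p = 0.0088), 3.82 for Runx3 and 1.19 for Runx2. Runx3 had 304 and 284 TPM in double mutant, 31.0 and 32.6 in CBL mutant, 173 and 42.4 in RUNX1 mutant and 14.9 and 10.7 TPM in wild type HSPC. In wild type Ly6G+ cells against wild type HSPC, Gfi1 fell by 1.95 and Myb by 1.37, and Cebpb rose with a log2 fold change of 2.83 (limma adjusted p = 0.0109).

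Among 14 tested hydrolases and antibacterial proteins of the granule, 2 rose and 2 fell in double mutant against wild type HSPC (4.64% and 6.79% of all genes). Lyz2, lysozyme, had 1680 and 944 TPM in double mutant and 5582 and 5496 TPM in wild type HSPC and fell by 2.77 (SE 0.44, limma adjusted p = 0.0217). Gaa and Gusb, which encode lysosomal glycosidases, rose with log2 fold changes of 1.18 and 0.62. Of 13 genes of protease activation, the granule matrix and inherited neutropenia, 0 rose and 1 fell, the granule membrane gene Cd63 (by 0.97, limma adjusted p = 0.0364). In wild type Ly6G+ cells against wild type HSPC, 3 of these 13 rose and 4 fell, where 16.9% and 22.9% of all genes did, among them G6pc3 and Jagn1, both mutated in human congenital neutropenia, which fell by 2.15 and 1.47, and the G-CSF receptor gene Csf3r, which rose with a log2 fold change of 3.40.

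Of 9 tested serpins and cystatins besides the members, 2 rose and 0 fell in double mutant against wild type HSPC (4.64% and 6.79% of all genes). These were the stefin genes Stfa1, at 2.82 ± 0.55 on the log2 scale (SE, limma adjusted p = 0.0304), and Stfa2, at 3.75 ± 0.78 (adjusted p = 0.0334). Of 9 tested MS4A genes besides Ms4a3, 3 rose (Ms4a8a with 2.31, Ms4a6d with 2.04 and Ms4a6b with 1.26) and 1 fell, the B cell gene Ms4a1 (by 1.08).

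Apart from Prtn3, the genes described here beside Elane and Ctsg had lower levels than these members in HSPC. Cfd, which starts 2638 bases after the end of Elane, was at most 1.49 TPM in any library. Gzme, beside Ctsg, was listed at 0 in all libraries, and Mcpt8, on the other side of Ctsg, had 41.2 and 40.0 TPM in double mutant and 21.4 and 23.5 TPM in wild type HSPC. Plppr3, on the opposite strand, overlaps the annotated start of Prtn3 and had 109 and 101 TPM in double mutant and 53.3 and 42.0 TPM in wild type HSPC.

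Over all 12 libraries, the genes whose log2 levels were most like the mean of Mpo, Elane, Prtn3 and Ctsg were Gstm1 (Pearson correlation 0.993), Nans (0.988), Etfb (0.984), Vat1 (0.981) and Cope (0.981), among 9690 genes searched. Gstm1 (0.990), Cuedc2 (0.989), Naxd (0.989), Dmkn (0.986) and Vat1 (0.984) were most like Ms4a3. Abhd5 (0.973), Pcyt1a (0.970), Rpe (0.963), Ppp1cb (0.961) and Nme3 (0.960) were most like Serpinb1a. Bckdha (0.981), Wwc2 (0.977), Ascc2 (0.967), Cutc (0.964) and Gpatch2 (0.961) were most like Cst7. These correlations describe 12 libraries of both cell types, and within a library all genes share the same scaling factor.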

How the data were processed

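Poly-A or total RNA selection is not stated; the labels' protocols name RNeasy extraction and standard Illumina libraries. The deposited table is named for counts, but its values are TPM (28987 genes, sums of 933370 to 981994 per library, not whole numbers), made by the authors with bcl2fastq, CASAVA 1.8, kallisto and the mm10 build, per the submitters' processing notes. The kallisto version and annotation are not given in the sources used here, and read depth is unknown. Because the design assumed counts, limma 3.58.1 (R 4.3.3) on log2(scaled TPM + 1) replaced a count test. Libraries were scaled by unweighted trimmed-mean factors (trims 0.3 and 0.05). Genes needed at least 1 scaled TPM in at least 2 libraries of the fit, with one fit over HSPC, one over Ly6G+ cells and one over all 12 libraries for cell types. Moderated tests used a trend and robust variances, with Benjamini-Hochberg adjustment over all genes, for 10 comparisons. p-values rest on the spread of 2 libraries per group.

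The members and lists were chosen with earlier results of these data known. Named genes were all members, up to 4 called genes with the smallest p per list, chromosomal neighbours and the 5 genes of most similar pattern. The values of a further gene under this rule are not reported here. The procedure was tested on simulated data. Alternatives were unscaled TPM, pseudocounts of 0.1 and 5, no filter, a replicate block, each library left out, one fit of all 12 libraries, and both libraries that stood apart left out.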

Additional observations from a re-analysis of the deposited data

How the results depend on the processing

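The counts of members called moved by over 1.5 times under these settings. On unscaled TPM, 6 members (4 higher, 2 lower) were called for double mutant against wild type HSPC, 2 against CBL mutant and 1 against RUNX1 mutant HSPC. With no filter the first gave 1 and the second 0. With all 12 libraries in one fit, double mutant against CBL mutant HSPC gave 0 and double mutant against wild type Ly6G+ gave 2. Deviations of same-numbered libraries correlated at -0.0165 to 0.463 over 15 pairs of groups, with 6 above 0.1 and 9 not, and the labels give the numbers no meaning, so numbers are not taken as pairs. With the replicate block, double mutant HSPC gave 4 members against CBL mutant and 2 against RUNX1 mutant, and genes called were 44 for CBL mutant against wild type, 0 for the non-additive term and 28 for double mutant against wild type Ly6G+.

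Genes called on unscaled TPM were 4382 (3965 higher, 417 lower) for double mutant and 14 for RUNX1 mutant against wild type HSPC, 397 for double mutant against RUNX1 mutant, 16 for the non-additive term, 3196 and 2464 for wild type and double mutant Ly6G+ cells against HSPC and 15 for the genotype by cell type term. With no filter they were 440 for double mutant and 14 for RUNX1 mutant against wild type, 238 for double mutant against CBL mutant, 375 against RUNX1 mutant, 1 for the non-additive term and 67 for the genotype by cell type term. With all 12 libraries in one fit the first 4 of these were 233, 13, 170 and 201, and double mutant against wild type Ly6G+ gave 1049. A pseudocount of 0.1 gave 40 for CBL mutant and 3 for RUNX1 mutant against wild type. A pseudocount of 5 gave 19 for RUNX1 mutant against wild type, 4 for the non-additive term, 2 for double mutant against wild type Ly6G+ and 38 for the genotype by cell type term. Without both libraries that stood apart, the wild type and double mutant cell type comparisons gave 8301 and 7737 and the genotype by cell type term 963.

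Signs turned on unscaled TPM for Elane (0.50) and Prtn3 (0.61) in double mutant against wild type HSPC, Mpo (0.15), Ctsg (0.12) and Prss57 (0.030) in CBL mutant, Mpo (0.43), Elane (0.019), Prtn3 (0.20), Ctsg (0.32) and Ms4a3 (0.20) in RUNX1 mutant, Cst7 in the non-additive term (-0.066), and Elane (0.38) and Ms4a3 (0.40) in double mutant against wild type Ly6G+. Without both libraries that stood apart they turned for Serpinb1a in double mutant Ly6G+ cells against HSPC (0.50) and for Mpo (0.69), Elane (0.74), Ctsg (0.20), Serpinb1a (0.87) and Ms4a3 (0.27) in the genotype by cell type term. The cause was not tested.

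Leaving out each library in turn gave 0 to 3 members called for double mutant against wild type HSPC, 0 to 4 against CBL mutant, 0 to 2 against RUNX1 mutant, 0 to 3 for RUNX1 mutant against wild type, 0 to 7 for double mutant against wild type Ly6G+ and 0 to 1 for the genotype by cell type term. Genes called ranged from 23 to 4377, 10 to 2878, 3 to 3543, 1 to 3627, 1 to 7119 and 3 to 2082 in that order, from 4 to 724 for CBL mutant against wild type, 0 to 1995 for the non-additive term, and 2242 to 7135 and 1100 to 6484 for wild type and double mutant cell types. Log2 fold changes spanned 0 for Elane (-0.33 to 0.048) and Prtn3 (-0.17 to 0.12) in double mutant against wild type HSPC, Mpo (-0.91 to 0.38), Elane (-1.34 to 0.081), Ctsg (-0.90 to 0.31) and Prss57 (-0.85 to 0.10) in CBL mutant against wild type, Elane (-0.22 to 1.20) in double mutant against CBL mutant and Prss57 (-0.92 to 0.019) against RUNX1 mutant. They also did for Cst7 (-0.16 to 0.67), Prss57 (-0.55 to 0.40) and Serpinb1a (-0.54 to 0.058) in the non-additive term, Mpo (-0.10 to 1.34), Elane (-1.03 to 0.61), Prtn3 (-0.59 to 1.15), Ctsg (-0.39 to 1.12) and Ms4a3 (-1.30 to 0.94) in double mutant against wild type Ly6G+, Serpinb1a (-1.33 to 0.50) in double mutant cell types, and Mpo (-0.75 to 0.69), Elane (-0.89 to 0.74), Prtn3 (-0.57 to 1.17), Ctsg (-1.31 to 0.20), Prss57 (-0.16 to 0.78), Serpinb1a (-0.96 to 0.87) and Ms4a3 (-1.97 to 0.27) in the genotype by cell type term. A lone library of a group was assumed to vary like the others. Under the other alternatives, 443 of the single values for members kept their direction and side of the threshold, 12 passed it, 6 no longer did and 19 turned sign. With 2 libraries per group and unknown depth, small differences could not be resolved.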
